A study of Mus musculus with 61 samples.

Results

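The response of quadriceps muscle to exercise training was compared between mice with an intact and mice with a depleted pool of regulatory T cells (Tregs), a T-cell type that expresses Foxp3 and limits inflammation. The quantity of interest was a difference of 2 responses, trained minus sedentary in mice depleted of Tregs, minus the same in their controls. It rests on 12 of the 61 whole-muscle RNA-seq libraries of the study, 3 in each of 4 groups, picked by their labels, and on none of the libraries from mice given an antibody. All 12 mice received diphtheria toxin (DT). DTR+ mice carry the allele Foxp3-IRES-GFP.hDTR, in which the human toxin receptor is made from the Foxp3 locus, so that the toxin removes cells that express Foxp3 anywhere in the body and not in muscle alone. DTR- mice do not carry it. Mice either stayed sedentary or trained for 2 weeks, which gives sedentary DTR-, trained DTR-, sedentary DTR+ and trained DTR+ groups. How toxin was dosed during training, and the sex and age of the mice, were not given in the sources used here.

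As background, training remodels muscle by raising genes of the contractile apparatus, of fat oxidation and of mitochondria, and exercise also draws immune cells into the tissue. Interferon-gamma (IFNγ), made mostly by T and NK cells, signals from its receptor to genes whose promoters hold gamma-activated sites. Among the genes it induces are 2 families of GTPases that guard the cell against intracellular microbes, the immunity-related GTPases (Irgm1, Irgm2, Igtp, Iigp1) and the guanylate-binding proteins (Gbp genes), together with antigen presentation genes. Tregs hold such inflammation in check.

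The libraries held 3359683 to 8655927 gene counts. Levels are CPM (counts scaled to the library's total). Myofibre markers summed to 175000 to 216000 CPM over the 12 libraries, so that the muscle label held. A pair of sedentary DTR+ libraries stood apart from the rest. Replicate 2 had the largest total (8655927) with the fewest genes detected (17342, against 19057 to 22079 in the others). In it, transcript length correlated at -0.368 with each gene's deviation from its mean over the 12 libraries. Replicate 3 had the smallest total (3359683) and such a correlation of 0.332, where the other 10 libraries lay between -0.078 and 0.144. Every difference of responses below uses both, and values without them are given where they matter. Foxp3, the gene that marks the depleted cells, was too scarce in whole muscle to check the genotype labels. It had 4 counts in 2 of 6 DTR- libraries and 2 counts in 1 of 6 DTR+ libraries (p = 1 by an exact permutation test on CPM, two-sided). Ifng itself had 3 counts in 3 of the 12 libraries.

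In DTR+ mice training raised a block of genes led by interferon-induced GTPases and lowered a set of genes, among them Phlda3, Rnf187 and Lamp1, that matched no list, and in DTR- mice none of them was called for training by edgeR. P-values here measure the spread between these samples only, which may be technical where they do not come from separate animals. Of 12579 genes tested, 34 (0.27%) had a training response that differed between genotypes at an adjusted p under 0.05, the threshold for calling a gene throughout (edgeR's quasi-likelihood test, Benjamini-Hochberg over all genes tested). The response was higher in DTR+ mice for 9 of them (0.0715% of genes tested) and lower for 25 (0.199%). At an unadjusted p under 0.05 there were 873 genes (6.94%). The difference of responses had a median of -0.039 over all genes and a median SE of 0.463, both in log2 units as are all differences below.

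Training by itself was called for 13 genes (0.103%) in DTR- mice, 10 higher (0.0795%) and 3 lower (0.0238%). In DTR+ mice it was called for 278 (2.21%), 123 higher (0.978%) and 155 lower (1.23%). The 2 arms share no library, while the difference of responses shares its libraries with both. Of 279 genes called in at least 1 arm, 33 (11.8%) depended on genotype by the test of the difference itself. All 33 had been called in DTR+ mice only. For the other 246 genes a difference between genotypes was not shown, which is not the same as an equal response. Of the 278 genes called in DTR+ mice, 147 differed between genotypes by more than 1 log2 unit without being called for it. Across the 278, the sign in DTR- mice was the same for 157 (56.5%, against 56.9% of all genes tested).

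**Figure D1:**
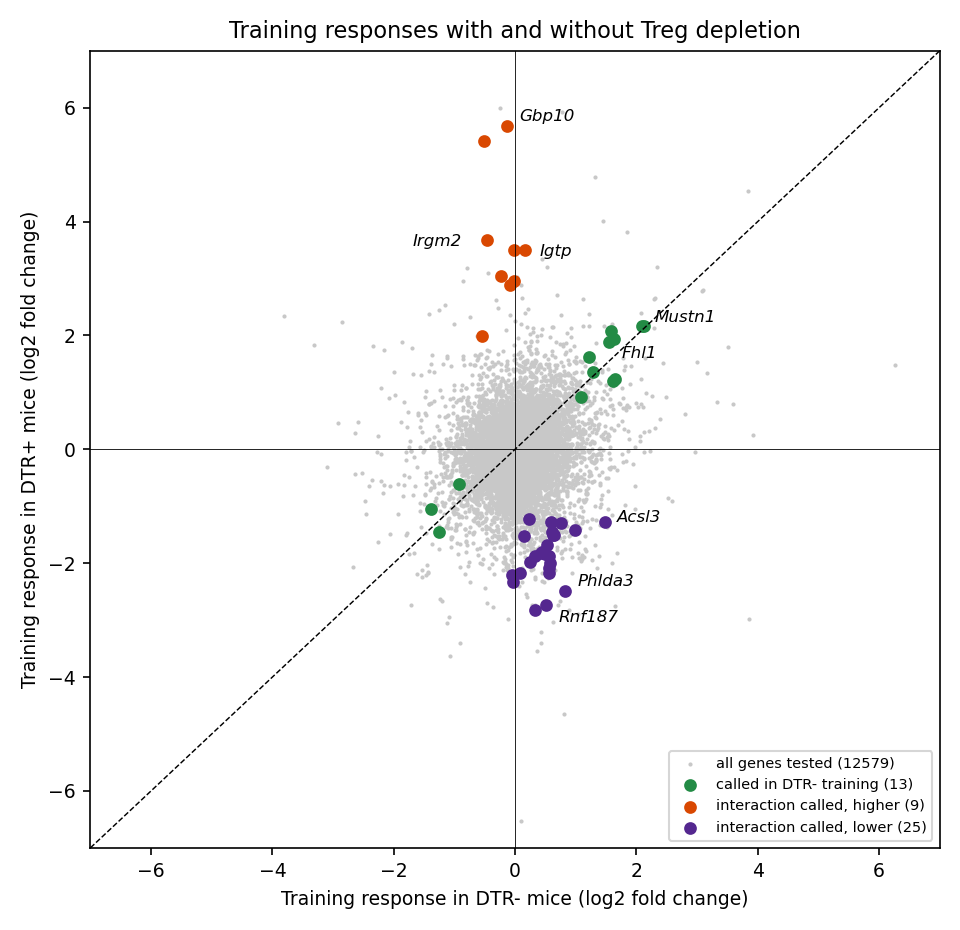
Training response (trained against sedentary, log2 fold change) of each of 12579 genes in DTR- mice on the horizontal axis and DTR+ mice on the vertical axis, 3 mice per group. The 9 genes with a higher response in DTR+ mice (orange) lie near 0 on the horizontal axis and between 1.98 and 5.68 on the vertical axis, the 25 with a lower response (purple) lie below 0 on the vertical axis, and the 13 genes called in DTR- mice (green) lie close to the dashed line of equal response.

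Of the 9 genes with the higher response 7 belong to the listed IFNγ response. Those reported here are 3 immunity-related GTPases on chromosome 11 (Irgm2, Igtp and Irgm1), Iigp1 of the same family, the guanylate-binding protein gene Gbp10 and the transcription factor Irf8. Outside the list were the gene models BC023105 and Gm12185. Over the 9 the median difference of responses was 3.33, made of a median training response of -0.14 in DTR- mice and 3.49 in DTR+ mice. In all 9 the 3 trained DTR+ libraries lay above the other 9 libraries, as they did for 1.95% of genes tested. The genes were chosen with these same libraries, so this separation was largely built in and is no further support. Gm12185 stood below 2.1 CPM in each of the 9 libraries outside the trained DTR+ group. The deposited counts do not show how reads shared by near-identical copies were assigned, and the GENCODE spans of Irgm2 and Igtp overlap. The split of reads within these families is therefore uncertain.

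The promoters of the GTPase genes are shown because members that moved together can be compared base by base. RefSeq windows of 300 bases (GRCm38.p6, 250 bases before the annotated start and 50 after it, so that each ends within the first exon) were found for 5 of the 9 genes, printed on the gene's strand. Capitals mark matches, on either strand, to the core of the interferon-stimulated response element (a pair of TTTC runs with any 2 bases between them) or to TTCNNNGAA, the gamma-activated site.
Irgm1, chr11:48871371-48871670, minus strand: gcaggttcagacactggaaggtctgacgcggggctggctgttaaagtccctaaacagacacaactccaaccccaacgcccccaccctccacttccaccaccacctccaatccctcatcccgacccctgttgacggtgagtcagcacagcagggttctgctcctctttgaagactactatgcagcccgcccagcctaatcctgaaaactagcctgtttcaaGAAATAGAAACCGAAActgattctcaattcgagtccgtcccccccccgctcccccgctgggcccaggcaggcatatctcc
Igtp, chr11:58199306-58199605, plus strand: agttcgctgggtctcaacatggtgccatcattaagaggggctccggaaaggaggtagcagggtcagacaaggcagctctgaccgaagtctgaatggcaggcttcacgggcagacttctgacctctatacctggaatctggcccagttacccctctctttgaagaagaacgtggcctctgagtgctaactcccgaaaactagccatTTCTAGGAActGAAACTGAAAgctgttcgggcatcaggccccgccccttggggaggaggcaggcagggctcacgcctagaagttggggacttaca
Irgm2, chr11:58214727-58215026, plus strand: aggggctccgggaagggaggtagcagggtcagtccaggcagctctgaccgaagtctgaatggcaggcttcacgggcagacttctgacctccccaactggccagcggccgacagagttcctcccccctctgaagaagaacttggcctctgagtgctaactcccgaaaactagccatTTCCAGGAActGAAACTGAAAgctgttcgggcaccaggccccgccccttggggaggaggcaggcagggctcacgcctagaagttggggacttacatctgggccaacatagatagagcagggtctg
Irf8, chr8:120736108-120736407, plus strand: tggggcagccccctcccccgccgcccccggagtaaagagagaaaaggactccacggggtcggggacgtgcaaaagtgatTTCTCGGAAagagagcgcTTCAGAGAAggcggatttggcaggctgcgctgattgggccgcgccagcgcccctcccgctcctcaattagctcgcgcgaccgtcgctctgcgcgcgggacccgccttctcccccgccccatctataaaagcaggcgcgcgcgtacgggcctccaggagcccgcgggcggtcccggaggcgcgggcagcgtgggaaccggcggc
In Igtp and Irgm2 a gamma-activated match begins 45 and 75 bases before the start and a response element match follows it, at 34 and 64 bases. The Irgm2 window is from RefSeq and lies inside the GENCODE span given below for that gene, beyond the end of Igtp. The RefSeq and GENCODE starts of Irgm2 therefore differ. In Irgm1 a pair of overlapping response element matches begins 30 and 24 bases before the start. Irf8 has 2 windows, and the printed window was picked for holding the most matches. The printed window has 2 gamma-activated matches, 171 and 153 bases before the start, and no response element match. The other window of Irf8 holds neither. The response element was matched in 4 of the 5 genes (80%) and the gamma-activated site in 4 (80%). The shares were 3.72% and 8.27% of the 9613 tested genes with a window, and 3.99% and 9.55% of all 27025 genes with one. By window each was matched in 4 of 6 (66.7%), against 3.02% and 6.79% of the windows of tested genes. The printed Igtp and Irgm2 windows share long runs of the same bases, so the 5 genes are not separate observations. A match is a run of letters and not a measured binding site.

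Irgm2 (chr11:58199618-58222782, plus strand), a GTPase that acts on membranes around engulfed microbes, had the smallest p of all genes. It stood at 25.3, 18.1 and 15.2 CPM in sedentary DTR- mice, 14.1, 18.3 and 12.4 in trained DTR- mice, 35.8, 28.5 and 21.4 in sedentary DTR+ mice and 264, 666 and 207 in trained DTR+ mice. The 9 other libraries kept to a narrow low band and the trained DTR+ mice lay far above it, replicate 2 highest. The difference of responses was 4.13 ± 0.51 (SE; adjusted p = 0.00181), from -0.46 ± 0.37 in DTR- and 3.68 ± 0.37 in DTR+ mice (3 mice per group). Igtp (chr11:58199556-58207591, plus strand), its neighbour, showed the same picture at 18.4, 15.3 and 10.3 CPM in sedentary DTR- mice, 13.8, 16.2 and 15.7 in trained DTR- mice, 36.0, 44.8 and 31.9 in sedentary DTR+ mice and 264, 833 and 237.9 in trained DTR+ mice. Sedentary DTR+ mice were above both DTR- groups without overlap, and trained DTR+ mice were higher again. Its difference of responses was 3.52 ± 0.55 (adjusted p = 0.0137). Irgm1 (chr11:48861968-48871683, minus strand), which regulates the other members of the family, went from 39.3 ± 11.1 to 305 ± 200.5 CPM with training in DTR+ mice (SD, n = 3) and from 25.2 ± 3.96 to 24.8 ± 2.31 in DTR- mice, a difference of 2.97 ± 0.49 (adjusted p = 0.0146).

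Iigp1, an effector GTPase that breaks open the vacuoles of parasites, stood at 7.58, 11.97 and 12.9 CPM in sedentary DTR- mice, 9.28, 11.8 and 16.2 in trained DTR- mice, 65.3, 35.2 and 37.5 in sedentary DTR+ mice and 347, 952 and 279 in trained DTR+ mice. Sedentary DTR+ mice lay above all DTR- mice without overlap, by 2.13 log2 at rest, although this was not called (adjusted p = 0.0662), and training raised it further in DTR+ mice. The difference of responses was 3.33 ± 0.56 (adjusted p = 0.0158). BC023105 differed by 3.28 ± 0.57 (adjusted p = 0.0189) with no such lead at rest (log2 0.20). Gbp10 (chr5:105215699-105239533, minus strand) stood at 1.12, 0.921 and 0.677 CPM in sedentary DTR- mice, 0.828, 1.14 and 0.654 in trained DTR- mice, 1.14, 0.116 and 1.79 in sedentary DTR+ mice and 26.8, 83.2 and 22.01 in trained DTR+ mice. It was close to the limit of detection outside the trained DTR+ group, where a count of 0 still allows 0.3466 to 0.8929 CPM depending on the library, so its difference of 5.82 ± 1.03 (adjusted p = 0.0228) is imprecise. The same holds for Gm12185 (5.93 ± 0.96, adjusted p = 0.0143).

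Irf8 (chr8:120736358-120756694, plus strand), a factor of macrophage and dendritic cell development, stood at 8.43, 6.26 and 6.43 CPM in sedentary DTR- mice, 2.98, 7.61 and 4.58 in trained DTR- mice, 8.52, 5.78 and 4.76 in sedentary DTR+ mice and 17.4, 35.6 and 25.7 in trained DTR+ mice. Only the trained DTR+ mice exceeded 10 CPM, and the difference was 2.53 ± 0.52 (adjusted p = 0.0449). In whole muscle, more cells that express a gene and more of its RNA per cell cannot be told apart.

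**Figure D2:**
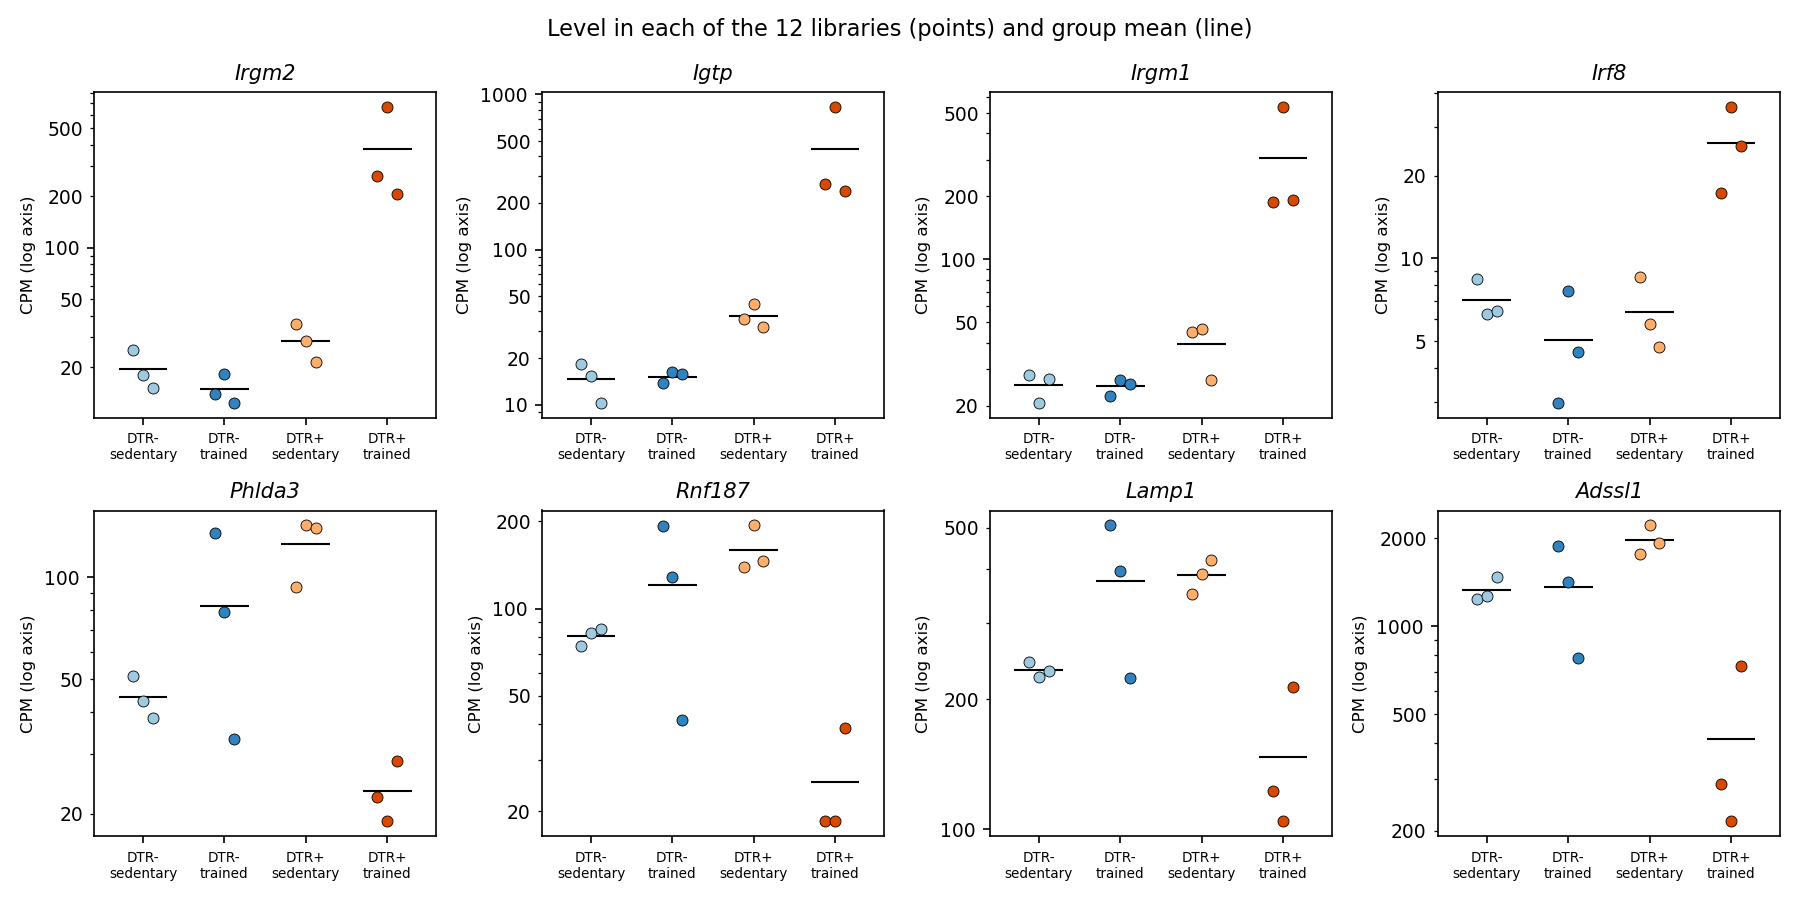
Level (CPM, log axis) in each of the 12 libraries, replicates 1 to 3 from left to right in each group, with the group mean as a line, for 4 genes whose training response was higher in DTR+ mice (top) and 4 for which it was lower (bottom). In the top genes the 3 trained DTR+ libraries lie above all others, and in the bottom genes they lie below all others while the trained DTR- libraries spread widely.

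The wider list of interferon-induced genes leaned the same way. Of 36 listed IFNγ response genes 33 were tested. Their difference of responses was positive for 30, called higher for 7, and had a median of 1.92 against -0.039 for all genes tested. At an unadjusted p under 0.05, 19 were higher and 0 lower. Training called 22 of the 33 higher in DTR+ mice, against 0.978% of all genes tested. In DTR- mice 0 were called by edgeR, 2 were higher at an unadjusted p under 0.05, and the median was 0.02. The difference between DTR+ and DTR- mice was positive at rest for 31 of 33 and called for 4, with a median of 1.48. After training it was positive for all 33 and called for 26, with a median of 3.70. The filter on low counts keeps a gene that is high in a single group. Gbp10 and Cxcl9 entered through the trained DTR+ group, at means of 44.0 and 15.7 CPM against at most 1.14 CPM in other groups. For such genes a positive sign was all but fixed in advance, and their number was not counted. The same limit holds for the other lists. Over all genes, genotype was called for 6 at rest (0.0477%, all higher, 0% lower) and for 112 after training (0.89%, 78 higher or 0.62%, 34 lower or 0.27%). In sum all listed IFNγ response genes, tested or not, took 374 to 405 CPM in sedentary DTR- and 392 to 419 CPM in trained DTR- libraries. They took 572 to 894 CPM in sedentary DTR+ and 2060 to 5730 CPM in trained DTR+ libraries. The 4 groups separated except for the DTR- pair.

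Genes of the type I interferon response were positive for 24 of 26 with a median of 1.15. The count called was 0 by edgeR and 1 by DESeq2, and 7 were higher at an unadjusted p under 0.05. Rsad2, an antiviral enzyme induced by both kinds of interferon, went from 9.11 ± 2.12 to 60.2 ± 26.5 CPM in DTR+ mice and from 6.88 ± 0.818 to 11.7 ± 4.22 in DTR- mice, a difference of 2.01 ± 0.46 that missed the threshold (adjusted p = 0.0795). MHC class I presentation was positive for 18 of 19 genes with a median of 0.85. Again 0 were called by edgeR and 1 by DESeq2, with 11 higher at an unadjusted p under 0.05. Training called 11 of the 19 higher in DTR+ mice, against 0.978% of all genes tested. In DTR- mice 0 were called higher by edgeR and 0 were higher at an unadjusted p under 0.05. Tap1, the peptide transporter that loads class I molecules, went from 17.4 ± 9.42 to 92.7 ± 44.9 CPM in DTR+ mice, with a difference of 2.23 ± 0.60 (adjusted p = 0.164), and H2-T23, a non-classical class I gene, differed by 2.10 ± 0.59 (adjusted p = 0.2). The IFNγ-induced transcription factor Irf1 was similar at 1.71 ± 0.42 (adjusted p = 0.118).

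Among MHC class II genes 4 of 7 tested were positive, 0 were called by edgeR or DESeq2, 1 was lower at an unadjusted p under 0.05, and the median was 0.094, or -0.114 without sedentary DTR+ replicate 3. Cd74, the class II invariant chain, went from 48.9 ± 6.75 to 93.1 ± 14.9 CPM in DTR- mice and from 119 ± 21.8 to 145 ± 22.8 in DTR+ mice, a difference of -0.64 ± 0.29 (adjusted p = 0.669). The list of the IFNγ receptor and its signalling had a median of 0.25 over 11 genes tested. The T-cell attractants Cxcl9 and Cxcl10 and the tryptophan-degrading enzyme Ido1 were called for training in DTR+ mice (Cxcl9 4.01 ± 0.70, adjusted p = 0.00419) but lay so low elsewhere that their difference of responses was not resolved (Cxcl9 2.56 ± 1.24, adjusted p = 0.725; Ido1 3.47 ± 3.88, adjusted p = 0.973).

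The 26 listed markers of T and NK cells summed to 19.4 to 32.0 CPM in the trained DTR+ libraries, against 10.1 to 17.3 CPM over the other 9. The sedentary DTR+ libraries, in which the interferon genes stood above both DTR- groups, did not stand apart in this sum (10.1 to 15.7 CPM, against 10.7 to 17.3 in DTR- mice). Single markers were near the floor. Most of the 26 had their highest count in the trained DTR+ group, but not all did. Only 3 of the 26 passed the filter on low counts, and of these 1 had a positive and 2 a negative difference of responses, with a median of -0.639, 0 called by edgeR and 0 at an unadjusted p under 0.05. Lck, the kinase of the T-cell receptor, had 35 counts in the 3 trained DTR+ libraries and 9, 1 and 1 in sedentary DTR-, trained DTR- and sedentary DTR+ mice. The cytotoxic granule gene Gzmb had 47 against 4, 4 and 4 counts, and Nkg7 had 36 against 4, 3 and 12. Cxcr6 had 40 against 18, 12 and 15, Klrk1 30 against 7, 8 and 4, and Cd4 24 against 6, 5 and 0. Gzma had 30 against 0, 6 and 23. Others were not highest in the trained DTR+ libraries. Cd3e, a chain of the T-cell receptor complex, had 43 counts against 63, 78 and 55, its signalling chain Cd247 had 26 against 31, 59 and 26, and the transcription factor Tbx21 had 15 against 28, 39 and 13. Cd3d was highest in the trained DTR+ libraries, but with only 5 counts against 0, 0 and 0. Gzmk, Klrd1 and Klrb1c were at 0 in the trained DTR+ libraries and had at most 3 counts in any other group. The markers named here were picked from the list after their counts were seen. The part of these cells in the interferon result was not tested.

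The 25 genes with a lower response in DTR+ mice were in none of the lists and lay on 12 chromosomes. Their median difference of responses was -2.25, made of a median training response of 0.52 in DTR- mice, positive for 23 of 25, and of -1.84 in DTR+ mice, negative in all 25. By the call, 24 fell with training in DTR+ mice and 0 moved in DTR- mice, where 8 passed an unadjusted p under 0.05. DESeq2 called 1 of all 34 genes for training in DTR- mice. The trained DTR+ libraries lay below the other 9 in 20 of the 25 genes, as for 1.55% of genes tested, and overlapped them in 5. Here too the genes were chosen with these same libraries, so the separation was largely built in. All 25 genes stood higher in sedentary DTR+ than sedentary DTR- mice (median 0.84). The difference of responses subtracts this difference at rest, so choosing genes by it favours that sign, which is no separate result. Of all 34 genes 0 were called at rest by edgeR and 4 by DESeq2. At an unadjusted p under 0.05 there were 22, a count with the same limit. In the 25 genes part of each difference of responses came from the sedentary DTR+ level, which includes the libraries that stood apart.

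Phlda3 (chr1:135766119-135769136, plus strand), a p53-induced brake on AKT signalling, stood at 51.0, 43.1 and 38.4 CPM in sedentary DTR- mice, 135, 79.2 and 33.4 in trained DTR- mice, 93.6, 142 and 139.9 in sedentary DTR+ mice and 22.5, 19.0 and 28.6 in trained DTR+ mice. Sedentary DTR+ mice were high, trained DTR+ mice were below all others, and the trained DTR- mice spread from below the sedentary DTR- range up to that of sedentary DTR+ mice. The difference of responses was -3.30 ± 0.47 (adjusted p = 0.00779). Rnf187 (chr11:58932288-58938916, minus strand), a ubiquitin ligase gene, stood at 74.2, 82.2 and 85.3 CPM in sedentary DTR- mice, 193, 129 and 41.4 in trained DTR- mice, 139, 194 and 146 in sedentary DTR+ mice and 18.5, 18.5 and 38.6 in trained DTR+ mice. The pattern was the same, with trained DTR- replicate 3 near the trained DTR+ range, and the difference was -3.25 ± 0.53 (adjusted p = 0.0143). Timm29 (chr9:21592722-21595970, plus strand), a subunit of the carrier translocase of the inner mitochondrial membrane, stood at 53.8, 55.1 and 48.4 CPM in sedentary DTR- mice, 114, 71.2 and 46.9 in trained DTR- mice, 76.9, 81.5 and 90.5 in sedentary DTR+ mice and 25.6, 15.9 and 30.4 in trained DTR+ mice, a difference of -2.33 ± 0.37 (adjusted p = 0.0137). Promoter windows were found for 23 of the 25 genes. Of these 23 genes 1 had a response element match (4.35%) and 1 a gamma-activated match (4.35%). The window of Phlda3, shown to contrast with the GTPase promoters, held neither.
Phlda3, chr1:135765835-135766134, plus strand: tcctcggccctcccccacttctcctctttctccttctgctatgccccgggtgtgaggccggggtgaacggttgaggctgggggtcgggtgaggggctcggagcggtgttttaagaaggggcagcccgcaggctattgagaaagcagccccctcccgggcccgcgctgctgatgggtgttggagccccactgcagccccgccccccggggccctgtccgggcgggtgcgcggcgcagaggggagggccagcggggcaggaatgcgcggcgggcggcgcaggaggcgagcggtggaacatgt

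Lamp1 and Tmem192 of the lysosomal membrane were among the 25, a grouping made after the calls were seen and not tested. Lamp1 (chr8:13159161-13175338, plus strand), a main protein of the lysosomal membrane, stood at 244, 225 and 232 CPM in sedentary DTR- mice, 506, 396 and 225 in trained DTR- mice, 351, 389.9 and 421 in sedentary DTR+ mice and 123, 104 and 213 in trained DTR+ mice. The trained DTR+ libraries were lowest, replicate 3 only just below the rest, and the difference of responses was -2.07 ± 0.35 (adjusted p = 0.0174). Cln6, mutated in a neuronal storage disease, differed by -2.16 ± 0.43 and Tmem192, a lysosomal membrane protein, by -2.42 ± 0.50. Vapa, which tethers the endoplasmic reticulum to other membranes, differed by -2.16 ± 0.42. Rac1, the small GTPase that links contraction and insulin to glucose transport, went from 116 ± 10.4 to 34.8 ± 9.89 CPM in DTR+ mice and from 64.7 ± 11.5 to 92.5 ± 46.7 in DTR- mice (difference -2.25 ± 0.41, adjusted p = 0.0231).

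Adssl1 (chr12:112620045-112641360, plus strand), the muscle enzyme of the purine nucleotide cycle, was the most abundant of the 25 and stood at 1243, 1274 and 1480.0 CPM in sedentary DTR- mice, 1887, 1418 and 783 in trained DTR- mice, 1764, 2219 and 1935 in sedentary DTR+ mice and 289, 216 and 730.0 in trained DTR+ mice. Sedentary DTR+ mice were above every sedentary DTR- mouse, and the trained DTR+ mice lay below all others (difference -2.30 ± 0.47, adjusted p = 0.0425). Adipor1, the adiponectin receptor of muscle, went from 399 ± 53.3 to 145 ± 43.5 CPM in DTR+ mice and from 265 ± 15.6 to 306 ± 87.7 in DTR- mice (-1.66 ± 0.30, adjusted p = 0.0231). Stbd1, which anchors glycogen to membranes, differed by -2.12 ± 0.40 and Cyb5r4, a cytochrome b5 reductase, by -2.73 ± 0.55. Acsl3, which activates fatty acids for lipid droplets, was the only one of the 34 called in neither arm. It stood at 6.88, 7.00 and 3.55 CPM in sedentary DTR- mice, 25.2, 15.4 and 10.5 in trained DTR- mice, 15.3, 11.7 and 21.7 in sedentary DTR+ mice and 5.79, 5.19 and 9.26 in trained DTR+ mice. It was higher in trained than sedentary DTR- mice and lower in trained than sedentary DTR+ mice, and the trained DTR+ libraries overlapped the others (difference -2.76 ± 0.51, adjusted p = 0.025).

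The remaining genes of the 25 have varied roles. Upf3a, a factor of nonsense-mediated decay (-3.14 ± 0.60), and Tsen34, a subunit of the tRNA splicing endonuclease (-2.24 ± 0.40), act on RNA. Fance, a member of the Fanconi DNA repair complex (-2.63 ± 0.50), and H1f0, a linker histone (-1.87 ± 0.35), act on chromatin. Fnta, the shared subunit of protein prenyltransferases (-2.57 ± 0.48), and Camk1, a calmodulin-dependent kinase (-2.24 ± 0.41), act in signalling. Rnf10 differed by -2.05 ± 0.40, Kcnc4, a voltage-gated potassium channel, by -1.45 ± 0.30, and Slc30a9, a zinc transporter, by -2.22 ± 0.42. Tmem160 (-2.45 ± 0.50), Pithd1 (-2.26 ± 0.43) and Tusc2 (-2.21 ± 0.46) complete the set, with adjusted p from 0.0231 to 0.0496 over these 12. By longest annotated transcript the 25 genes had a median length of 2193 bases and a GC content of 52.2%, the 9 higher genes 3528 bases and 45.6%, and all tested genes 3413 bases and 49.4%. With each library's trend on length and GC content removed, 40 genes were called, 9 higher and 31 lower, and 32 of the 34 were among them.

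The number of calls depended on single libraries far more than the estimates did. All 34 genes kept their sign with each library left out in turn. The count of calls fell to 4, 4 and 3 without sedentary DTR- replicate 1, 2 or 3, to 2 and 5 without trained DTR- replicate 1 or 2, and to 12 and 11 without trained DTR+ replicate 1 or 2. It rose to 67 without trained DTR- replicate 3, to 149 without trained DTR+ replicate 3 and to 56 without sedentary DTR+ replicate 2. Irgm2 and Phlda3 were called in all 12 of these fits, Igtp in 10, Gm12185 in 9, and Irgm1, Iigp1 and Timm29 in 8. Without sedentary DTR+ replicates 2 and 3 together, which leaves 1 library in that group with its spread taken from the others, 0 genes were called by edgeR and 959 passed an unadjusted p under 0.05. The median of the 9 higher genes was then 3.68 and that of the 25 lower genes -1.98.

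The level of the 25 lower genes also differed between libraries of a group. Taking each gene's deviation from its mean over the 12 libraries (log2 CPM), the median over the 25 was 0.881, 0.432 and -0.245 in the 3 trained DTR- libraries, the widest spread of the 4 groups. It was -0.018, -0.057 and -0.080 in sedentary DTR-, 0.497, 1.07 and 0.809 in sedentary DTR+ and -1.05, -1.28 and -0.672 in trained DTR+ libraries. The median over the 9 higher genes was 2.67, 4.06 and 2.30 in trained DTR+ libraries and between -1.50 and -0.191 in all others. These values describe genes chosen for the difference and carry no test.

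Training also changed genes that did not depend on genotype by the test. Of the 13 genes called in DTR- mice, 0 had a called difference of responses by edgeR or DESeq2 and 0 passed an unadjusted p under 0.05. In DTR+ mice 12 of the 13 were called too, all in the same direction, and Tigar was not. Fhl1, a LIM protein of the sarcomere, stood at 823, 829 and 841 CPM in sedentary DTR- mice, 2692, 2400.0 and 2511 in trained DTR- mice, 764, 710.5 and 606 in sedentary DTR+ mice and 1929, 3225 and 2816 in trained DTR+ mice. Every trained mouse exceeded every sedentary mouse in both genotypes. Training raised it by 1.55 ± 0.18 in DTR- and 1.89 ± 0.19 in DTR+ mice, and the 95% interval of the difference was -0.20 to 0.87. Mustn1, a small nuclear protein of growing and regenerating muscle, stood at 43.3, 49.9 and 36.9 CPM in sedentary DTR- mice, 204, 244 and 134 in trained DTR- mice, 50.2, 57.0 and 34.2 in sedentary DTR+ mice and 152, 287 and 233 in trained DTR+ mice, again with no overlap between trained and sedentary mice (2.10 ± 0.27 and 2.17 ± 0.27, interval -0.70 to 0.84).

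Myh1, the fast IIx myosin heavy chain, rose by 1.29 ± 0.18 and 1.36 ± 0.18 (interval of the difference -0.46 to 0.60), and the oxygen store myoglobin (Mb) by 1.21 ± 0.18 and 1.62 ± 0.18 (-0.12 to 0.94). Myom3 of the M-band (1.59 ± 0.24 and 2.08 ± 0.25, interval -0.22 to 1.22) and the small heat shock protein Hspb7 (1.63 ± 0.27 and 1.94 ± 0.27, interval -0.47 to 1.10) rose in both. The lipogenic genes Acly, which makes acetyl-CoA from citrate, and Mid1ip1 rose by 1.64 ± 0.28 and 1.61 ± 0.24 in DTR- mice and 1.24 ± 0.28 and 1.19 ± 0.24 in DTR+ mice. Uchl1, a deubiquitinase (2.12 ± 0.40 and 2.17 ± 0.43), and the imprinted RNA H19 (1.08 ± 0.20 and 0.91 ± 0.20) rose as well. Rcan1, the calcineurin inhibitor, fell to 48.6 ± 3.62 from 110.5 ± 22.1 CPM in DTR- mice and to 40.7 ± 8.39 from 108 ± 31.2 CPM in DTR+ mice. B230312C02Rik fell in both (-1.39 and -1.04). Tigar, a p53-induced regulator of glycolysis, fell in DTR- mice (-0.93 ± 0.18, adjusted p = 0.0447) and stood at -0.60 ± 0.18 in DTR+ mice (adjusted p = 0.0838). For none of these 13 did the 95% interval of the difference exclude 0. The lowest bound was -1.23 for Acly and the highest was 1.22 for Myom3, so differences of that size are not excluded.

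**Figure D3:**
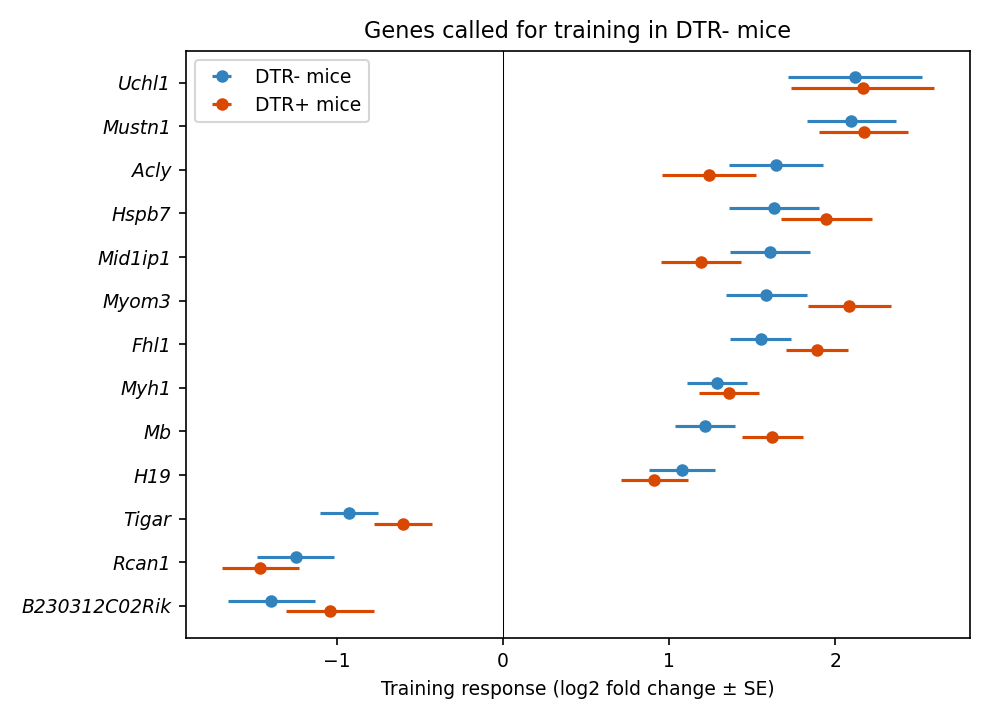
Training response (log2 fold change with SE) in DTR- mice (blue) and DTR+ mice (orange) of the 13 genes called for training in DTR- mice. The 10 genes that rose and the 3 lower ones lie on the same side of 0 in both genotypes, with the closest pair of values in Uchl1, Mustn1 and Myh1.

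Genes of energy metabolism are those on which training is known to act, and none of their lists held a called difference of responses by edgeR or DESeq2. Of 37 nuclear complex I genes edgeR called 0 for training in either arm, with 0 in DTR- mice and 1 in DTR+ mice at an unadjusted p under 0.05. The difference was negative for 30 of 37 with a median of -0.098, but the median was 0.338 without sedentary DTR+ replicate 2, so that no direction can be read. The same held for complexes II to V (median -0.053, and 0.364 without that library) and the mitochondrial ribosome (-0.048 and 0.342). Mitochondrially encoded mRNAs had a median of 0.152, and -0.05 without sedentary DTR+ replicate 3. Ppargc1a, the coactivator of mitochondrial biogenesis, went from 41.5 ± 1.60 to 51.4 ± 9.88 CPM in DTR- mice and from 31.4 ± 14.4 to 57.4 ± 5.91 CPM in DTR+ mice (difference 0.64 ± 0.35, adjusted p = 0.809). Lonp1, the mitochondrial matrix protease, differed by -1.29 ± 0.37 (adjusted p = 0.213).

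In the lists of fuel use most differences were positive. The difference was positive for 23 of 24 citrate cycle genes (median 0.21) and for 26 of 35 genes of fatty acid uptake and oxidation (median 0.29), with 5 of the 35 higher and 1 lower at an unadjusted p under 0.05. Both medians kept their sign in all 20 alternative analyses, and the median of all genes tested was -0.039. Training called 5 of the 24 and 6 of the 35 higher in DTR+ mice, against 0.978% of all genes tested. The 5 were Got2, Pdp1, Dlst, Got1 and Cs, named although 4 of them fall outside the naming rule. In DTR- mice the calls were 0 of 24 and 0 of 35 by edgeR, with 6 and 5 higher at an unadjusted p under 0.05. The share of all genes at that unadjusted threshold was not counted for DTR- mice. Hadha, a subunit of the trifunctional enzyme of fat oxidation, went from 346 ± 72.9 to 576 ± 80.1 CPM in DTR+ mice and from 419 ± 29.2 to 463 ± 51.8 in DTR- mice (0.62 ± 0.24, adjusted p = 0.506). Part of the gap lay at rest, where sedentary DTR+ mice had lower means of both Dlst (345 ± 71.9 against 432 ± 19.4 CPM) and Hadha. Replicate 2, which stood apart, was the lowest sedentary DTR+ library in both genes. The 3 replicates had 401.7, 264.4 and 370 CPM of Dlst and 426.3, 284.5 and 325.9 of Hadha.

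For fatty acid synthesis 12 of 15 differences were negative, with a median of -0.30. For training in DTR- mice 12 of the 15 were positive, 9 higher at an unadjusted p under 0.05 and Acly was called, with a median of 0.59. In DTR+ mice 9 were positive, Acly was called and the median was 0.325. Scd2, a fatty acid desaturase, went from 19.3 ± 0.504 to 45.6 ± 7.96 CPM in DTR- mice and from 21.3 ± 12.04 to 17.7 ± 7.75 in DTR+ mice, a difference of -1.46 ± 0.46 that was not called (adjusted p = 0.285). Extracellular matrix genes were negative for 28 of 34 (median -0.41), with 8 lower at an unadjusted p under 0.05. Their median ranged from -0.60 to -0.05 over the alternatives. Col5a1, a chain of type V collagen, went from 34.4 ± 14.6 to 16.9 ± 2.35 CPM in DTR+ mice and from 30.3 ± 3.81 to 34.9 ± 4.84 in DTR- mice (-1.17 ± 0.34, adjusted p = 0.222), and the tension-induced matrix protein Tnc differed by -1.22 ± 0.45 (adjusted p = 0.456). For fibre type genes 0 differences were called by edgeR or DESeq2, 0 passed an unadjusted p under 0.05, and the medians were 0.095 for slow and -0.005 for fast genes, with signs that changed among the alternatives. Myh4, the fastest myosin, fell with training in DTR+ mice (-0.80 ± 0.14, adjusted p = 0.00473) and stood at -0.57 ± 0.14 in DTR- mice.

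Macrophage markers were negative for 15 of 20 (median -0.42), with 18 of 20 positive for training in DTR- mice (median 0.48) and 13 of 20 in DTR+ mice (median 0.17). Their summed level was 247 to 288 CPM in sedentary DTR-, 360 to 463 in trained DTR-, 372 to 438 in sedentary DTR+ and 383 to 528 in trained DTR+ libraries, lowest in sedentary DTR- mice and overlapping in the other groups. C1qc, a chain of complement C1q, had the smallest p of the list, from 32.2 ± 10.7 to 8.54 ± 5.17 CPM in DTR+ mice and from 12.4 ± 3.50 to 19.8 ± 7.85 in DTR- mice (-2.59 ± 0.57, adjusted p = 0.0604). DESeq2 called 1 macrophage gene, edgeR 0. The partner chains C1qa and C1qb, named after their values were seen, did not follow, with 556 counts of C1qa in sedentary and 545 in trained DTR+ libraries and 796 and 1012 counts of C1qb, where C1qc had 571 and 149.

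**Figure D4:**
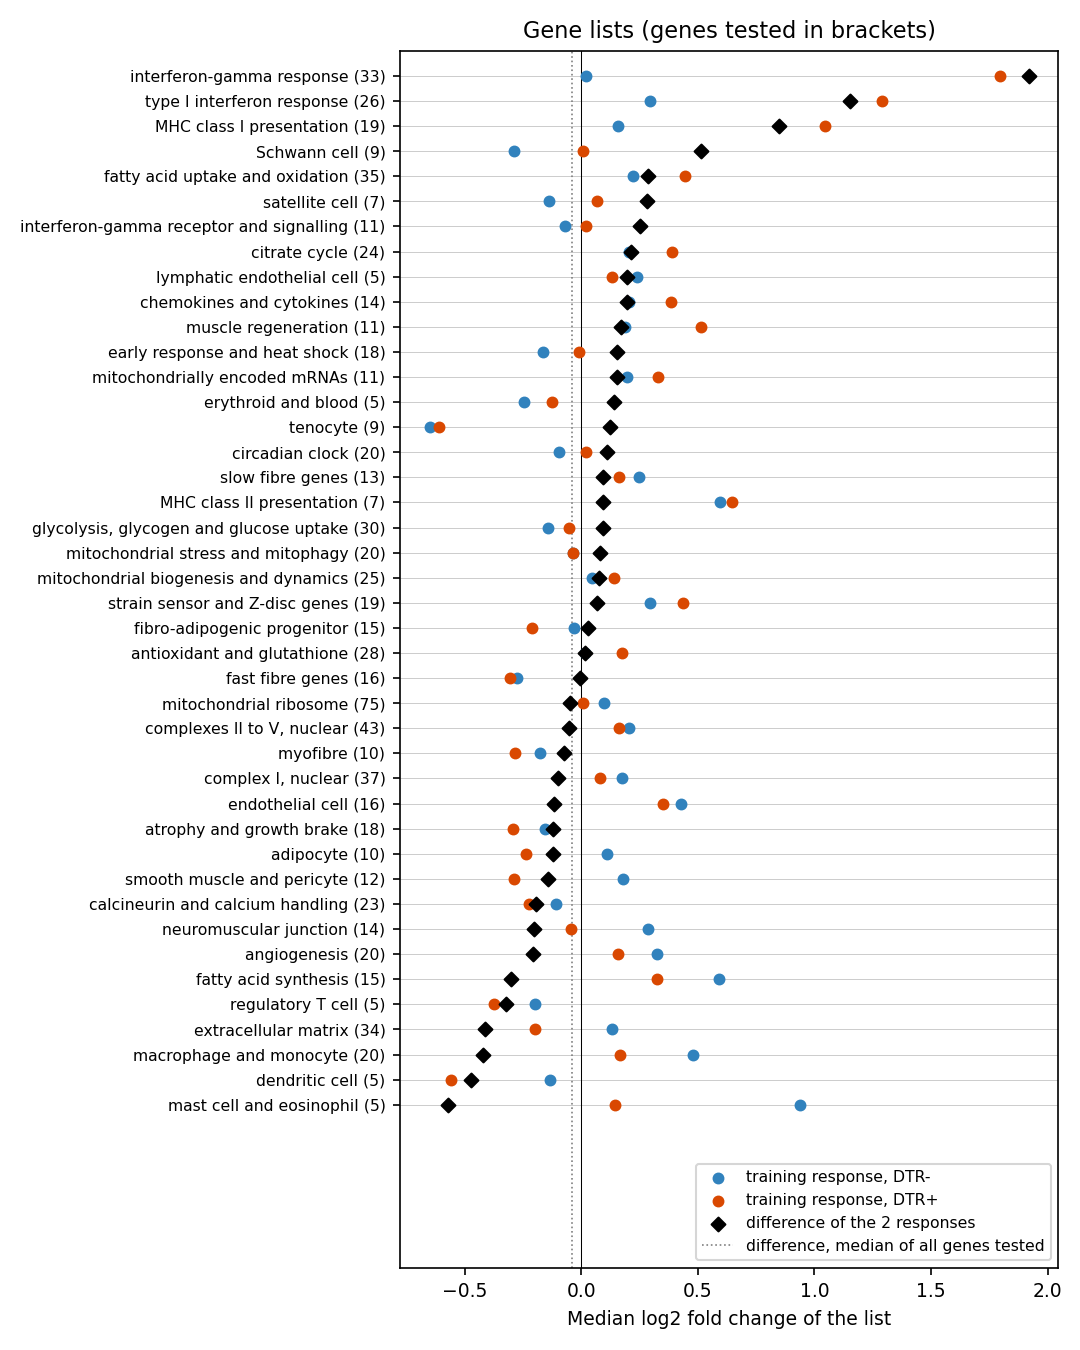
Median log2 fold change of each gene list with at least 5 genes tested (number in brackets), for training in DTR- mice (blue), training in DTR+ mice (orange) and the difference of the 2 responses (black diamond), with the median difference of all genes as a dotted line. Lists of the IFNγ response, the response to type I interferon and MHC class I lie at 1.92, 1.15 and 0.85, and the mitochondrial lists lie near 0.

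The same genes were read in 6 other libraries, from DTR+ mice that trained for 2 weeks with DT and either an antibody to IFNγ or IgG as its control, 3 in each group, none of which enters the difference of responses. With the antibody 8 of the 9 higher genes were called lower (background 0.715% of 11742 genes tested), with a median of -2.76 against -0.002 for all genes. Iigp1 stood at 102, 123 and 228 CPM with IgG and 10.8, 10.2 and 9.82 with the antibody (-3.88 ± 0.26, adjusted p = 1.02e-06). Igtp stood at 61.2, 83.9 and 182 CPM with IgG and 13.4, 13.0 and 18.6 with the antibody (-2.86 ± 0.32, adjusted p = 0.000173). The IgG group was spread over a wide range and the antibody group was tight and low in both genes. Irf8 alone was not called, at 8.34, 8.33 and 35.1 CPM with IgG and 8.23, 11.6 and 7.62 with the antibody (-0.92 ± 0.44, adjusted p = 0.51), where 1 IgG library was high.

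Of the 25 lower genes 16 were called higher with the antibody (background 0.63%), all 25 were positive, and the median was 1.04. Adssl1 stood at 214, 228 and 578 CPM with IgG and 1308, 1008 and 1016 with the antibody (1.71 ± 0.28, adjusted p = 0.00433). Rnf187 stood at 18.5, 14.5 and 31.2 CPM with IgG and 108, 67.3 and 67.1 with the antibody (1.91 ± 0.24, adjusted p = 0.000467). In both genes every antibody library exceeded every IgG library. Phlda3, with the lowest difference of responses, was also called, with a smaller change, from 21.5, 24.1 and 25.7 to 34.1, 42.6 and 38.1 CPM (0.69 ± 0.15, adjusted p = 0.0323). In all, 24 of the 34 genes were called in the direction opposite to their difference of responses.

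**Figure D5:**
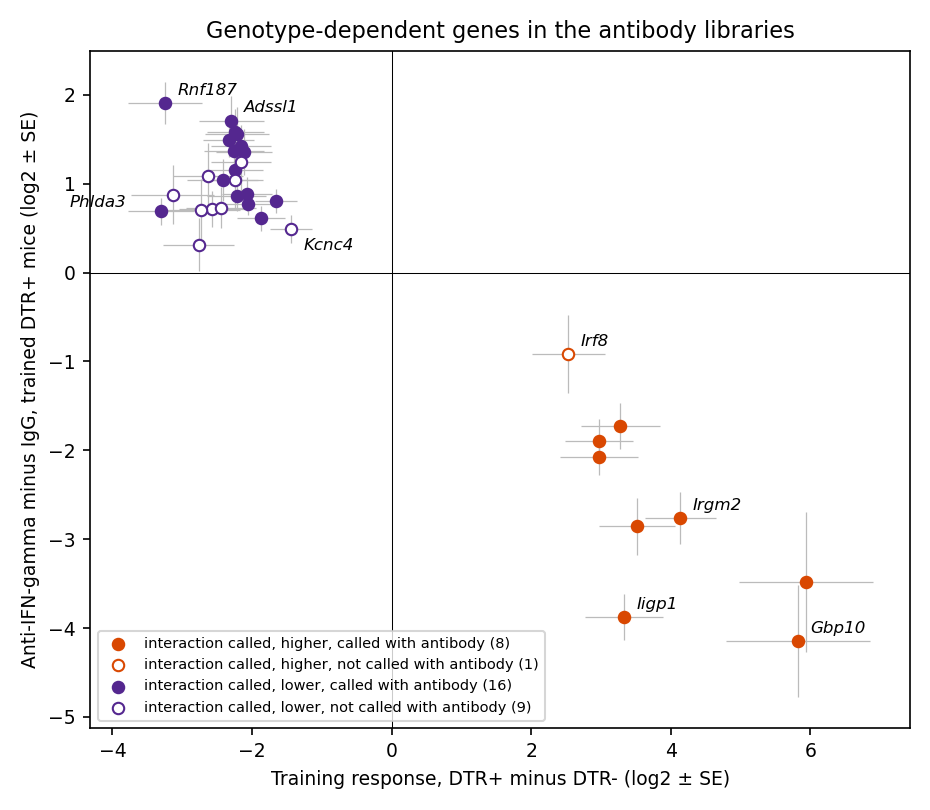
Difference of training responses (DTR+ minus DTR-, log2 with SE) against the effect of the IFNγ antibody in other trained DTR+ mice (log2 with SE) for the 34 genes. The 9 higher genes lie at the lower right and the 25 lower genes at the upper left, with filled points for the 8 and 16 called with the antibody.

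The acute experiment offered the same kind of difference after a single bout of exercise, at day 7 of recovery. It rests on 9 other quadriceps libraries, 2 sedentary DTR+, 3 sedentary DTR-, 2 day 7 DTR+ and 2 day 7 DTR-, fitted together with 6 libraries of day 1, which share the estimate of the spread. There 5 of the 9 higher genes were called higher (background 0.0632% higher and 0.014% lower of 14245 genes tested), all 9 were positive, and the median was 5.25 against 0.002 for all genes. Irgm2 differed by 5.78 ± 0.89 (adjusted p = 0.00648) and BC023105 by 4.74 ± 0.59 (adjusted p = 0.0015). Of the 25 lower genes 0 were called by edgeR, 6 passed an unadjusted p under 0.05, all 6 in the positive direction, 20 were positive and the median was 0.32. Phlda3 stood at 0.85 ± 0.33 and Adssl1 at 0.90 ± 0.43.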

How the data were processed

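Whole quadriceps RNA was sequenced, and the authors deposited gene counts for every library, aligned with STAR 2.7.3a to mm10 and counted with featureCounts, per the submitters' processing notes. The sources used here do not give the annotation, the strand setting or the treatment of reads shared by near-identical genes. RNA was taken with TRIzol and libraries were made from 2 ng by an ultra-low-input protocol, per the labels' protocols. Counts of the 12 libraries (3359683 to 8655927 each) were fitted as deposited with edgeR 4.0.16 in R 4.3.3. A quasi-likelihood test was run on group means after TMM scaling and a filter on low counts (minimum count 10, minimum total 15), which kept 12579 of 55011 genes. SE is the log2 fold change divided by the square root of F, and 95% intervals use its degrees of freedom. The 6 antibody and 15 acute libraries were fitted separately. A gene is called where its p, adjusted by Benjamini-Hochberg over all genes tested, is under 0.05. A count of 0 allows up to 3 counts, and such limits cover counting error only.

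Alternatives were RLE scaling, DESeq2 1.42.0, no filter, a minimum count of 30, a replicate block, removal of length and GC trends, omission of mitochondrially encoded genes and omission of each library. The omission of sedentary DTR+ replicates 2 and 3 together was chosen after seeing the data. Named were up to 15 called genes per direction with at least 5 CPM in a group, 2 genes with the smallest p and any called gene of each list, up to 6 rising and 6 falling genes of each training response, and Foxp3, Ifng and Ppargc1a. The remaining called genes and the remaining training genes of DTR- mice were added so that the sets are nearly complete, and 1 item is counted in them but not reported here. The samples, lists and this rule were chosen with earlier results of these data known. Scripts were tested on simulated data. Promoter windows and motifs come from RefSeq tables of GRCm38.p6.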

Additional observations from a re-analysis of the deposited data

Results flagged for a closer look

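The training response differed between DTR+ and DTR- mice by the test of the difference itself in 34 genes (edgeR's quasi-likelihood test, adjusted p under 0.05), and those reported are given here for that reason with the difference in log2 units. It was higher in DTR+ mice for Gm12185 (5.93), Gbp10 (5.82), Irgm2 (4.13), Igtp (3.52), Iigp1 (3.33), BC023105 (3.28), Irgm1 (2.97), Irf8 (2.53). It was lower for Phlda3 (-3.30), Rnf187 (-3.25), Upf3a (-3.14), Acsl3 (-2.76), Cyb5r4 (-2.73), Fance (-2.63), Fnta (-2.57), Tmem160 (-2.45), Tmem192 (-2.42), Timm29 (-2.33), Adssl1 (-2.30), Pithd1 (-2.26), Rac1 (-2.25), Tsen34 (-2.24), Camk1 (-2.24), Slc30a9 (-2.22), Tusc2 (-2.21), Cln6 (-2.16), Vapa (-2.16), Stbd1 (-2.12), Lamp1 (-2.07), Rnf10 (-2.05), H1f0 (-1.87), Adipor1 (-1.66), Kcnc4 (-1.45). Their adjusted p ran from 0.00181 for Irgm2 to 0.0496 for Kcnc4.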

How the results depend on the processing

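All 34 genes kept the sign of their difference of responses in all 20 alternatives. Of the 680 values this gives, 420 stayed on their side of the threshold and 260 lost the call. Over all named genes 5 of 2248 values reversed, none in a called gene: Ndufs5 at 0.124 without sedentary DTR+ replicate 2 and 0.119 without replicates 2 and 3 together, Ikzf2 at 0.183 without replicate 3 (with one library out, Ndufs5 ran from -0.555 to 0.124 and Ikzf2 from -0.689 to 0.183), and Col3a1 at 0.155 and Hba-a1 at 0.09 without both. The cause was not tested. With DESeq2 the differences of responses called were 99 (19 higher, 80 lower), with no filter 147 (31 and 116), and with both libraries out 0 (0 and 0). The training-responsive genes among them were 95, 143 and 0. Training in DTR- mice was called for 32, 45 and 34 genes and for 21 with length and GC trends removed, training in DTR+ mice for 510, 511, 78 and 427. Genotype was called at rest for 21 genes with DESeq2 and 47 with no filter, and after training for 183, 260 and, with both libraries out, 210. With one library out, the calls ranged from 2 to 149 for the difference of responses (higher 1 to 21, lower 1 to 128), 2 to 141 for training-responsive genes with it, 3 to 28 for training in DTR- and 53 to 849 in DTR+ mice, 0 to 12 for genotype at rest, 47 to 239 after training, and 14 to 25 of the 34 genes with the antibody. The 0 at rest came without sedentary DTR- replicate 1, 2 or 3 (edgeR, with 523, 516 and 518 genes at an unadjusted p under 0.05). Training in DTR+ mice had 849 calls without sedentary DTR+ replicate 2 and 53 without trained DTR+ replicate 2. Replicate numbers showed no sign of pairing the libraries. Deviations of the 18 same-numbered pairs correlated at -0.156 to 0.1, and 3 of 12 libraries correlated best with their own number. With 3 libraries a group this check cannot exclude a pairing. With the replicate block 22 differences were called, 8 higher and 14 lower, 21 of them in training-responsive genes. With 3 libraries a group and a median SE of 0.463, differences of about 1 log2 unit were mostly not resolved.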

Other observations

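The IgM heavy chain gene Ighm, the only B-cell marker tested, fell with training in DTR+ mice (log2 -1.14, edgeR adjusted p = 0.00694) and stood at -0.27 in DTR- mice (adjusted p = 0.999). Its counts were 2740 in the sedentary and 2201 in the trained DTR- libraries, and 2480 and 1161 in the sedentary and trained DTR+ libraries. The difference of responses was -0.86 ± 0.30 and was not called (adjusted p = 0.413). Other listed B-cell markers had few counts and did not move together. In sedentary and trained DTR+ libraries Igkc had 11 and 19 counts and Jchain 7 and 16, while Ighd had 12 and 9 and Mzb1 6 and 1. These were named after their counts were seen. The fall is therefore one of Ighm and cannot be read as one of B cells.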
